A study of Mus musculus with 3 samples.

Results

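Among promoter fragments assayed in mouse erythroid cells, the 300 with the smallest share of their contacts close by were examined, out of 6517 that could be ranked and 7197 in the list of viewpoints. A viewpoint is a DpnII fragment at a promoter whose ligation products were pulled down with biotinylated probes, and the local share is the percentage of its ligation events on the same chromosome (cis events) that lay within 1 Mb of its midpoint. The members were chosen by that share, as the mean of 3 libraries, so low local contact is the rule and not a result.

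The assay was nuclear-titrated (NuTi) Capture-C, in which chromatin is cut with DpnII and ligated inside nuclei, and fragments that met are joined and sequenced. Cells were ter119+ erythroid cells, selected with magnetic beads from the spleens of F1 hybrid (C57BL/6-cross-CBA/J) mice made anemic with 3 doses of phenylhydrazine 12 h apart and killed on day 5. The 3 libraries formed 1 group with no control group, and every comparison below is between fragments or distances within them. The files hold contacts and no expression, so the erythroid label could not be checked against markers. The alpha globin viewpoints Hba-1 and Hba-2 ranked 6235 and 6278 of 6517 by local share, and the beta globin viewpoints Hbb-b1 and Hbb-b2 ranked 3798 and 3954. The table does not name its columns, which are called libraries a, b and c in their order.

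In a chromosome, contact frequency falls with distance along the DNA, and domains formed by loop extrusion favour contacts of a promoter within its own neighbourhood. Beyond that scale, active and inactive chromatin keep apart, so that gene-rich active regions meet one another over long distances. Gene density varies widely along mouse chromosomes, from gene deserts to crowded clusters. In erythroid cells most genes are silent and a small set, led by the globin genes, is highly expressed.

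A few fragments are printed here because the results turn on them. Positions are in mouse build mm9 and letters follow the plus strand unless stated. The first pair shows the start of the lowest-ranked member, listed as Cdkn2d at chr9:123836437-123836496, and the start of an identical copy on the minus strand at chr9:21096017-21096076, with the DpnII site in capitals. All 561 bases of the listed fragment are identical in the copy, 102.7 Mb away.
Cdkn2d as listed: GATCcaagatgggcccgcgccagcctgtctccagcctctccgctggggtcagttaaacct
Cdkn2d copy: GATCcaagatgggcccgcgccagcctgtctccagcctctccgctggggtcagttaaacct
The second-lowest member, C130026I21Rik (chr1:85267085-85267340), is shown with capitals for the 253 of its 256 bases that lie in 30-base words found again elsewhere on chromosome 1.
C130026I21Rik: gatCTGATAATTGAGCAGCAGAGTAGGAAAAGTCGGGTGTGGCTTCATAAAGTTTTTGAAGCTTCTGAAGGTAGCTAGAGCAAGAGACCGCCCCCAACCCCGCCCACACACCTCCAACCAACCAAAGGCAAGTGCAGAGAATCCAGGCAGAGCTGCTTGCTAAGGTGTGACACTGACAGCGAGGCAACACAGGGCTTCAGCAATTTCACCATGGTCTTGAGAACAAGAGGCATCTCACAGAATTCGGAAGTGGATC
The last is a member promoter without a CG dinucleotide that the study designed as an inactive control, Vmn1r42 (chr6:89795457-89795625), printed without capitals because none of its bases is marked. It was short enough to print whole and was picked after its values were seen.
Vmn1r42: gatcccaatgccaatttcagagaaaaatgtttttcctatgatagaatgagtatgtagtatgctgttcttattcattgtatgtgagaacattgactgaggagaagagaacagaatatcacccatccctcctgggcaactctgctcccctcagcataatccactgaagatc

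Cis depth of the members ranged from 1027 to 175487 events in the sum of the libraries, with a median of 13969, against 6604 in the other 6217 ranked viewpoints. Over the members, libraries b and c split their events inside and outside 1 Mb alike within counting noise, with a mean chi-square per viewpoint of 0.969 where noise alone gives 1. Libraries a and b gave 34.9. Over all 6517 ranked viewpoints the values were 1.12 for b and c and 15.4 for a and b, so b and c differed slightly more than noise there. Libraries b and c were averaged and counted as 1 sample, and means below are given with SD and n = 2. This SD leaves out differences between b and c, whose likeness was checked for the local share only. Nothing in the labels says that the libraries came from separate animals, so the spread between libraries may be technical. Exact binomial (Clopper-Pearson) 95% intervals cover counting error only.

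The members' median local share in libraries a, b and c was 27.7%, 25.5% and 25.5%. In the other ranked viewpoints it was 48.02%, 43.7% and 44.0%. The mean over libraries ran from 5.56% to 28.43% in the members, as the rule requires. Library a was the highest of the 3 in 254 of 300 members and 5758 of 6217 others, and the lowest in 32 and 153. At the edge of the list, the last member, Prkra, an activator of the RNA-dependent kinase PKR, stood at 28.43%. Close inside it were Cd84 (28.39%), Pcdhgb1 (28.36%) and Zfp40 (28.35%). Just outside were the viewpoints of Dusp10 and 1700056E22Rik (28.43%), 2700099C18Rik and Mettl4 (28.46%), Actr3 (28.48%), 2810001G20Rik and Cox10 (28.49%) and Dppa5a (28.49%). The step from inside to outside was smaller than the differences between libraries. When the lowest 300 were picked in library a alone, 237 were also in the list picked in library b and 236 in that of library c, and the lists of b and c shared 255. All 3 lists shared 219 viewpoints.

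**Figure D1:**
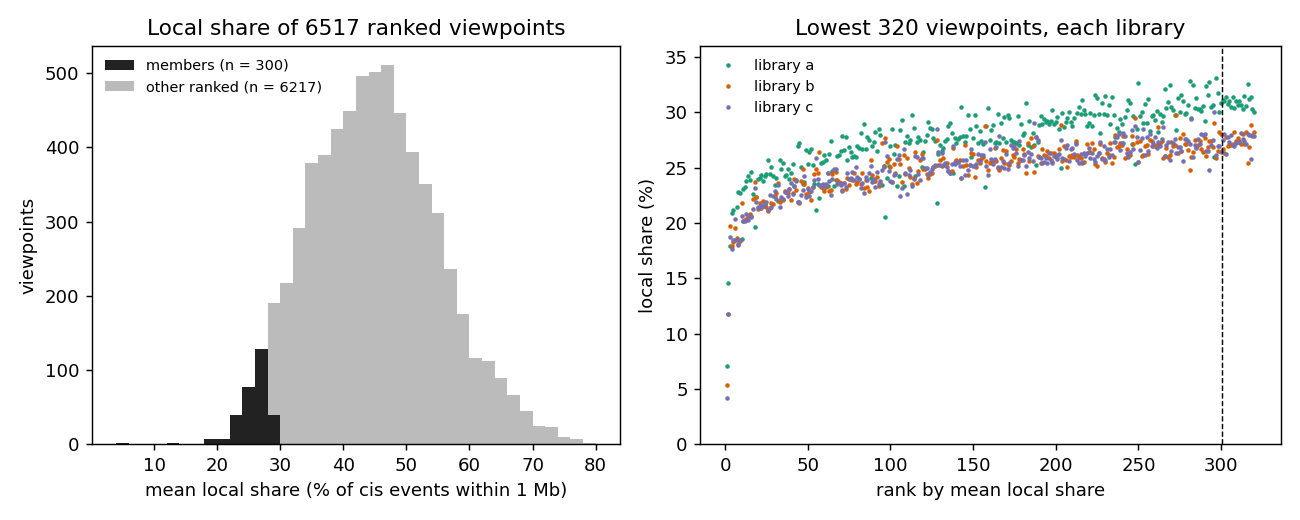
Left, histogram of the mean local share (percent of cis events within 1 Mb) of the 300 members (black) and the 6217 other ranked viewpoints (grey), stacked. Right, the share in each library for the 320 lowest viewpoints by rank, with the dashed line after rank 300. Library a lies above b and c for most members, and 2 members lie far below the rest.

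Most of the members' events lay beyond 10 Mb or between 1 and 10 Mb. From 10 to 100 kb the members held a median of 10.4% of events in library a, 9.35% in b and 9.27% in c, and the others held 17.7%, 15.9% and 15.9%. From 100 kb to 1 Mb the values were 11.3%, 10.9% and 10.9% in the members and 20.7%, 19.7% and 19.9% in the others. These ranges are the rule itself. Outside it, the share from 1 to 10 Mb was 24.0% ± 0.0992 (SD, n = 2) in the members and 20.9% ± 0.747 (SD, n = 2) in the others. The share over 10 Mb was 49.8% ± 1.71 (SD, n = 2) and 32.5% ± 2.26 (SD, n = 2). Since shares sum to 100%, the far ranges had to rise as the local share fell, and most of the rise was over 10 Mb. Within 1 Mb the members' events were spread to both sides, with a median of 55.3% on the larger side against 56.7% in the others.

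**Figure D2:**
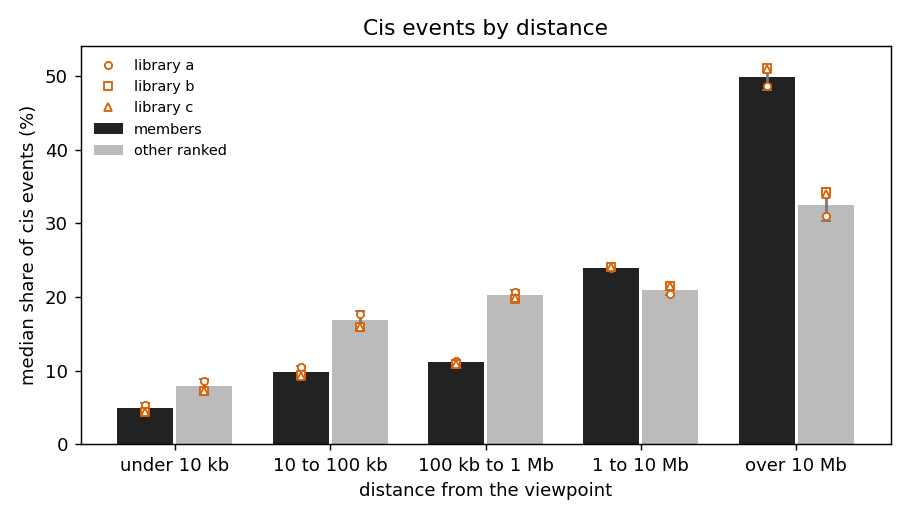
Median share of cis events (percent) in 5 ranges of distance from the viewpoint, for the 300 members (black) and 6217 other ranked viewpoints (grey). Bars are means and error bars SD of n = 2 (library a, mean of b and c), and open symbols are the 3 libraries. Members are lower in each range up to 1 Mb and higher in both ranges beyond it.

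The lowest members differed in depth and in place. Cdkn2d, which encodes an INK4 inhibitor of cyclin-dependent kinases, had 7.09%, 5.40% and 4.203% of its events within 1 Mb in libraries a, b and c (interval of the sum 4.56% to 6.26%). C130026I21Rik, an unnamed gene of the inactive control set, had 14.6%, 11.8% and 11.8%. Rnpc3, a protein of the minor spliceosome, had 17.9%, 19.7% and 18.7%, with no other viewpoint within 1 Mb and 8 protein-coding gene starts there. These 3 shares were low in each library, and their libraries did not overlap with one another. The deep viewpoints 1190002N15Rik (20.9%, 17.95% and 17.7%) and Cep162 (21.2%, 18.3% and 18.5%) followed, the latter at the gene of a centriolar protein. Cwc22, a splicing and exon junction factor, had 18.4%, 19.6% and 20.3%. Ttk, the spindle checkpoint kinase Mps1, had 21.4%, 18.7% and 18.5%, and the viewpoint of the chloride channel gene Clcn4 with Mir5620 had 22.8%, 18.08% and 18.04%. Library a lay above b and c in most members, so order is read within a library. In each library 1190002N15Rik lay below Cep162, and both of these and Ttk lay below Cox7a2 and Elac2, while Rnpc3, Cwc22 and Tmx4 changed places with others between libraries. Hsd3b4, a steroid dehydrogenase gene of the inactive set, had 22.7%, 18.4% and 18.4%. Tmx4, a membrane-bound thioredoxin-related protein, had 18.6%, 21.8% and 20.6%. Cox7a2, a subunit of cytochrome c oxidase, had 23.0%, 20.2% and 20.1%, and Elac2, the tRNA 3′ processing enzyme, had 23.2%, 20.2% and 20.2%. In Rnpc3, Cwc22 and Tmx4 library a was the lowest, opposite to most members. These 3 had 0 other viewpoints within 1 Mb. Over all 99 ranked viewpoints with 0 others there, library a was the highest by median, at 30.8% against 29.5% and 29.1%.

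Most events of the viewpoint named Cdkn2d lay around a copy of its fragment and not around its listed position. The listed fragment, chr9:123836437-123836997, overlaps an exon of Gm4694 in the mm9 annotation (GENCODE vM1), and the annotated start of Cdkn2d lay 102.7 Mb away. All of its 30-base words recur at chr9:21095516-21096076, which overlaps an exon of Cdkn2d. Within 1 Mb of that copy lay 58.97%, 54.1% and 55.6% of the viewpoint's events in libraries a, b and c. Counted there, its mean share was 56.2%, which would rank it 5656. It was the only ranked viewpoint whose 100 kb bin with most events was more than 1 Mb from the listed position, against 6500 whose bin was within 100 kb. The 15 events of its top far fragment, at chr9:21040692-21041573, also lay near the copy.

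**Figure D3:**
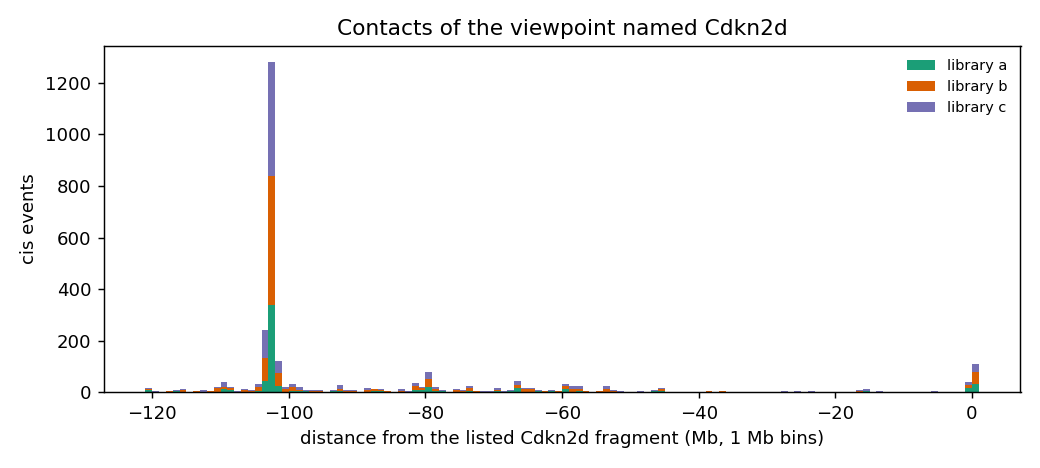
Cis events of the viewpoint named Cdkn2d in 1 Mb bins by distance from its listed fragment (Mb), stacked by library. The tallest bin, from 103 to 102 Mb upstream, held 337, 501 and 441 events in libraries a, b and c, while the 2 bins at the listed fragment held 47, 60 and 43.

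Repeated sequence touched other members as well. Of the 300 members, 21 (7%) had more than 10% of their 30-base words elsewhere on the chromosome, against 276 of all 6517 ranked viewpoints. Fgfr1op, a centrosomal protein gene, and Tagap1, a T cell activation gene, lay 1.19 Mb apart on chromosome 17 and shared 1159 words, 83.1% and 83.0% of their fragments. Within 100 kb of its partner's position, Fgfr1op held 589, 1146 and 1162 events in libraries a, b and c, against 21, 42 and 56 at the same distance on its other side. Tagap1 held 684, 1333 and 1328 events at its partner against 83, 161 and 181. Both pairs of values were far apart in each library, and the partner lies just outside the 1 Mb window. Zfp120, a zinc finger gene with 14.1% of words repeated 23.0 Mb away, held 45, 97 and 90 events there against 7, 14 and 7 at the mirror position. C130026I21Rik and the nuclear body gene Sp100 (67.9% of words) had copies both inside and outside 1 Mb. Hsd3b4 (98.3%) had copies inside 1 Mb only. How reads of identical copies were assigned by the aligner was not tested. Without the 21, the members' median depth was 13141 events, and their results are given below where they change a value.

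Members fell into 3 classes that the rule did not use. The study designed probes against active promoters and against a set of inactive control promoters, and probe sequences of the inactive set matched 176 ranked viewpoints. Of these, 57 were members (32.4%), against 300 of 6517 (4.60%) of all ranked viewpoints, and they made up 19% of the members. A stretch of chromosome 9 (viewpoint of Timm8b with Sdhd to that of Dbr1), where viewpoints were far deeper than elsewhere, held 39 further members of 152 (25.7%). The remaining 204 members came from 6189 viewpoints (3.30%). Both special classes were deep. The median was 84549 events in inactive members and 98181 in the stretch members, against 9096.5 in the remaining members and 6293 in the remaining other viewpoints. Of the 336 ranked viewpoints with more than 30000 events, 101 (30.1%) were members. Depth, capture design and class moved together here, and their part in the ranking was not tested.

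The lowest inactive members are given by name. Besides C130026I21Rik and Hsd3b4, the lowest were Serpinb7 (24.2%, 20.6% and 20.3% in libraries a, b and c), an epidermal serpin, and Olfr983 (24.1%, 21.8% and 21.4%), an olfactory receptor. Serpinb9g, another serpin, had 23.8%, 21.97% and 21.6%. Lox, the collagen cross-linking lysyl oxidase, had 25.7%, 21.9% and 21.4%. These 4 were highest in library a and lay within 2 points of one another in each library. The uncharacterised 1190003K10Rik had 25.4%, 22.1% and 22.1%. Otol1, an inner ear collagen-like protein, had 26.6%, 22.6% and 22.3%, and Olfr1030 had 25.5%, 23.2% and 23.5%. The deepest members were of the same 2 deep classes. They were Senp8 with Myo9a (175487 events, 26.4%, 23.9% and 24.1%), Ehf (165535 events, 32.1%, 26.0% and 26.1%), an epithelial transcription factor, and Il1rn (163879 events, 27.7%, 23.1% and 23.3%), the interleukin-1 receptor antagonist. Tmod3, a tropomodulin of the actin and spectrin skeleton, had 163133 events and 25.7%, 21.05% and 21.2%. Gja5, the gap junction protein connexin 40, had 154061 events and 27.9%, 23.6% and 23.8%.

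By median, member promoters stood in surroundings poorer in genes and in GC than those of the others. The median number of other viewpoints within 1 Mb was 2 in the members and 12 in the others, and the nearest was 255 kb and 37.2 kb away. Protein-coding gene starts within 1 Mb had medians of 12 and 32, and GC content of the same window was 41.3% and 45.0%. The remaining members alone had 2 other viewpoints, 11 gene starts and 41.0% GC, against 12, 32 and 45.1% in the remaining others. Inactive members had a median of 18 gene starts (quartiles 11 to 36), against 33 in the other inactive viewpoints. Stretch members had 16, against 26 in the other stretch viewpoints. The supply of fragments differed less, with 4909 and 4937 DpnII sites within 1 Mb, and 4051.5 and 4384 fragments listed with a contact. Counted from the first or last base of the chromosome, 3 of the 300 members lay within 1 Mb of an end, against 80 of all 6517 ranked viewpoints. Unassembled sequence at the start of a chromosome was not treated as an end, so members beside it, such as Cnksr3 (chr10:3134195-3135063), were not counted. The median distance to an end was 46.6 Mb in members and 30.6 Mb in others, with chromosome length not taken into account.

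The local share rose with the number of promoters around across all ranked viewpoints. With 0 other viewpoints within 1 Mb the median share in libraries a, b and c was 30.8%, 29.5% and 29.1%, and 38 of 99 such viewpoints (38.4%) were members. With 1 to 2 it was 35.7%, 32.7% and 32.9%, and 113 of 529 (21.4%) were members. With 6 to 10 it was 44.6%, 40.4% and 40.8%, and 47 of 1472 (3.19%) were members. With more than 40 it was 67.7%, 62.3% and 62.2%, and 0 of 158 were members. Each step was in the same direction in each library. Spearman's rho across the 6517 viewpoints was 0.64, and 0.64 in the 6189 outside the 2 deep classes, as a description, since viewpoints near each other share their surroundings. The 57 inactive members and the 39 stretch members each had a median of 4 other viewpoints, and 11 inactive members had more than 10. Viewpoints mark promoters that were targeted, so this number is a count of the design's promoters and not of all genes.

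**Figure D4:**
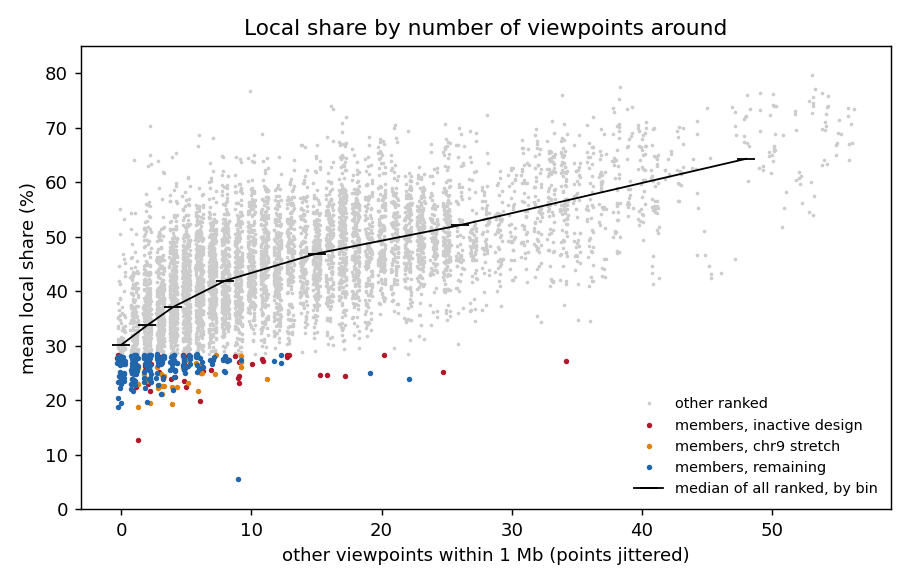
Mean local share (percent of cis events within 1 Mb) against the number of other viewpoints within 1 Mb, 1 point per ranked viewpoint with jitter on the x axis. Members are coloured by class, other ranked viewpoints are grey, and the line joins medians of bins of all ranked viewpoints. In library b the median was 29.5% with 0 other viewpoints and 62.3% with more than 40, and members to the right of 10 are mostly of the inactive design.

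Members often neighboured members. Of the 300, 139 (46.3%) had another member within 1 Mb, in 57 groups, while 685 of the 6217 others (11.02%) had one. The largest groups held 5. In the first, Zfp808, Gm3604, Zfp935, Zfp934 and 6720489N17Rik spanned 0.495 Mb of a zinc finger gene cluster on chromosome 13 (62231127 to 62725692), and all 5 ranked viewpoints of the span were members. Each of these 5 also had more than 10% of words repeated nearby. In another, Ibtk, Ube2cbp, Dopey1, Cyb5r4 and Cep162 held 5 of 6 in 1.51 Mb of the chromosome 9 stretch. Windows of neighbours overlap, so grouped members are not independent. By chromosome, members made up 51 of 387 ranked viewpoints on chromosome 9 (13.2%), 33 of 379 on chromosome 1 (8.71%), 43 of 558 on chromosome 2 (7.71%) and 20 of 267 on chromosome 13 (7.49%). They made up 1 of 250 on chromosome 19 (0.400%), 2 of 244 on chromosome 15 (0.820%) and 2 of 207 on chromosome 14 (0.966%). Chromosomes 1 and 2 are 197 and 182 Mb long and chromosome 19 is 61.3 Mb, while chromosomes 9, 13 and 14 are alike at 124, 120 and 125 Mb. The part of chromosome length in these shares was not tested. Outside the inactive set and the stretch, chromosome 9 held 8 members.

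The member fragments themselves were longer and somewhat less GC-rich. Median length was 883 bp in members and 742 bp in others. With a minimum of 5000 events and the lowest 300 picked anew, it was 903 bp in that list and 839 bp in the rest. That list held 255 of the members. Median GC content was 55.1% in members and 59.2% in others. CpG observed over expected, which is near 1 in CpG islands and low elsewhere, had medians of 0.728 and 0.756. Within the members the classes differed more. The median was 0.294 in the inactive members, 0.772 in the stretch members and 0.769 in the remaining members, and in the other viewpoints it was 0.368 in the inactive set and 0.758 in the remaining. Vmn1r42, printed above, stands at 0.

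Gene classes held members at shares read beside the 4.60% of all ranked viewpoints. Zinc finger genes (Zfp, Zkscan and Zscan) had 11 members of 202 (5.45%), among them Zfp873, Zfp317, Zfp935 and Zfp369. Rik and Gm genes had 20 of 336 (5.95%), solute carriers 7 of 117 (5.98%), led by Slc25a36, Slc30a4, Slc39a10 and Slc17a5, and Tmem genes 5 of 106 (4.72%). Chromatin regulators of the Kdm, Kmt, Smarc, Chd, Hdac, Brd and Setd families had 3 of 49 (Smarcad1, Kdm4c and Setd3). Ubiquitin enzymes had 3 of 56 (Usp1, Ube2cbp and Usp47), and vesicle traffic genes 3 of 103 (Vps13c, Rab28 and Vps4b). Mitochondrial ribosomal proteins had 2 of 70 (Mrpl19 and Mrpl1) and cytosolic ribosomal proteins 1 of 75 (Rps13). Replication-dependent histone genes, which sit in dense clusters, had 0 of 43, and proteasome genes 0 of 44. Of 53 ranked viewpoints from a list of erythroid genes, 0 were members. At 4.60% each of these 3 classes would hold few members, so nothing is read from the counts of 0. Median shares of that list were 54.5%, 49.3% and 49.9% in libraries a, b and c, above the medians of all ranked viewpoints of 47.4%, 43.1% and 43.4%.

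The far contacts of the members differed by class in what they met. For each viewpoint, the percentage of events over 10 Mb away that lay within 100 kb of another viewpoint was taken. It was divided by the percentage of listed fragments that lay there, so that 1 means the same percentage as among the fragments. No expectation from distance or from the yield of single fragments entered this ratio. In the remaining members the median ratio in libraries a, b and c was 1.62, 1.57 and 1.56, or 1.59 ± 0.0405 (SD, n = 2). In the stretch members it was 1.67, 1.70 and 1.69, or 1.68 ± 0.0168 (SD, n = 2). In the inactive members it was 0.751, 0.678 and 0.685, or 0.716 ± 0.0493 (SD, n = 2). The ratio was under 1 in all 3 libraries in 40 of 57 inactive members, 0 of 39 stretch members and 13 of 204 remaining members. In the other viewpoints of these classes it was so in 24 of 119, 1 of 113 and 42 of 5985. The medians of inactive members lay below those of both other classes in each library. Viewpoints are not replicates, so no test across them is given.

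Inactive members were also the lowest class among deep members, while the order of the other classes changed. Among members with more than 30000 events, the ratio was 0.716 ± 0.0459 (SD, n = 2) in 54 inactive, 1.65 ± 0.00104 (SD, n = 2) in 38 stretch and 1.69 ± 0.0125 (SD, n = 2) in 9 remaining members. Inactive viewpoints outside the list gave 1.35 ± 0.0725 (SD, n = 2), above the inactive members in each library, and remaining viewpoints outside it 1.93 ± 0.0253 (SD, n = 2). Within ranges of the number of viewpoints around, remaining members lay below remaining others in each range, by differing amounts. With 0 other viewpoints within 1 Mb, the ratio was 1.40 ± 0.0982 (SD, n = 2) in 31 members and 1.66 ± 0.0564 (SD, n = 2) in 56 others. With 1 to 2 other viewpoints within 1 Mb, the ratio was 1.67 ± 0.0118 (SD, n = 2) in 93 remaining members and 1.69 ± 0.0263 (SD, n = 2) in 407 remaining others. With 3 to 5 it was 1.67 ± 0.00893 (SD, n = 2) and 1.82 ± 0.0155 (SD, n = 2), and with 6 to 10 it was 1.41 ± 0.0529 (SD, n = 2) and 1.91 ± 0.0263 (SD, n = 2). In the 50 members with 3 to 5, libraries a, b and c gave 1.68, 1.64 and 1.68, a wider spread than that SD. With over 10 the ratio was 1.096 ± 0.0136 (SD, n = 2) in 5 members and 2.01 ± 0.0322 (SD, n = 2) in 3258 others. That range is open, and crowding is not equal within it. Remaining members had at most 22 other viewpoints and remaining others up to 56. With 1 to 2 the gap was within the spread of the libraries. In the inactive set with 0 other viewpoints, 7 members gave 0.556 ± 0.0357 (SD, n = 2) and 5 others 0.491 ± 0.0303 (SD, n = 2). With 1 to 2, 12 members gave 0.650 ± 0.0397 (SD, n = 2) and 8 others 0.776 ± 0.0281 (SD, n = 2). With 3 to 5, 17 members gave 0.711 ± 0.0438 (SD, n = 2) and 16 others 1.15 ± 0.0421 (SD, n = 2). With 6 to 10, 10 members gave 0.977 ± 0.0826 (SD, n = 2) and 30 others 1.25 ± 0.0261 (SD, n = 2), and with over 10, 11 members gave 0.799 ± 0.0524 (SD, n = 2) and 60 others 1.54 ± 0.0537 (SD, n = 2). Here too the last range is open, with up to 34 other viewpoints in inactive members and 55 in inactive others.

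Single promoters show the range. Among the 255 members with at least 5000 events, the lowest ratio was that of the olfactory receptor Olfr480, at 0.447, 0.383 and 0.378 in libraries a, b and c, where 15.5%, 13.3% and 13.1% of its events over 10 Mb away lay near viewpoints and 34.6% of fragments did. Next came Pramel6 (mean ratio 0.480), Ralyl (0.495), Cyp7b1 (0.502), an oxysterol hydroxylase, C130026I21Rik (0.509) and the neuronal gene Nbea (0.512). All 6 were of the inactive set. The highest was Rbm15, an RNA-binding factor of blood cell development, at 2.82, 2.82 and 2.71, where 65.9%, 65.8% and 63.3% of events lay near viewpoints and 23.4% of fragments did. Rnpc3 (2.42), Pdcd10 with Serpini1 (2.37), Med6 (2.34), a Mediator subunit, Setd3 (2.20) and Rfwd2 (2.20) followed, none of them of the inactive set. These 12 were chosen by their ratio after it was seen.

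**Figure D5:**
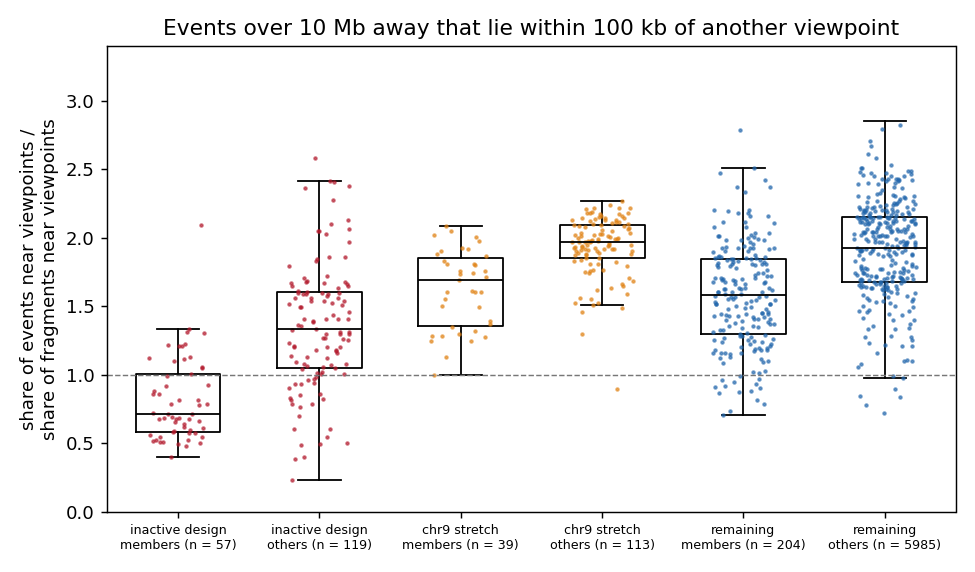
Ratio of the share of events over 10 Mb away within 100 kb of another viewpoint to the share of listed fragments there, mean of 3 libraries, 1 point per viewpoint, for members and other ranked viewpoints of 3 classes (chr9 stretch is the deep chromosome 9 stretch). Boxes give quartiles and the median with whiskers to 1.5 times the interquartile range, the dashed line marks 1, and a regular subset of points is drawn for the 5985 remaining others. Most inactive members lie below 1 and most members of the other classes above it.

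The same split appeared at fragments next to other promoters within 1 Mb. Targeted fragments themselves appear in no contact of the table, so fragments 1 to 2 places away were used, and events there were divided by the number expected from distance and the viewpoint's total from 2.5 kb to 1 Mb. Both were first summed over all viewpoints of a class, so deep viewpoints weigh most, unlike in the medians per viewpoint above. Inactive members gave 0.782, 0.703 and 0.677 in libraries a, b and c, or 0.736 ± 0.0649 (SD, n = 2), and other inactive viewpoints 0.741 ± 0.00902 (SD, n = 2). Stretch members gave 1.83 ± 0.0759 (SD, n = 2) and the other stretch viewpoints 1.37 ± 0.0253 (SD, n = 2). Remaining members gave 2.36 ± 0.0312 (SD, n = 2) and remaining others 1.52 ± 0.0306 (SD, n = 2). Without viewpoints with more than 10% of words repeated these 2 values were 2.13 ± 0.0151 (SD, n = 2) and 1.45 ± 0.0289 (SD, n = 2). Within ranges of crowding the direction varied. With 1 to 2 other viewpoints and repeated fragments left out, 92 remaining members gave 2.57 ± 0.0205 (SD, n = 2) and 400 others 5.79 ± 0.164 (SD, n = 2). In these 92 members libraries a, b and c gave 2.56, 2.81 and 2.37, a wider spread than that SD. With 3 to 5, 46 members gave 1.89 ± 0.0130 (SD, n = 2) and 881 others 2.23 ± 0.00907 (SD, n = 2), and with 6 to 10, 17 members gave 2.92 ± 0.438 (SD, n = 2) and 1299 others 1.83 ± 0.0208 (SD, n = 2). Stretch members lay below stretch others in both of these bins, opposite to the pooled values. With 3 to 5, 18 stretch members gave 2.07 ± 0.105 (SD, n = 2) and 13 others 2.96 ± 0.306 (SD, n = 2). With 6 to 10, 11 stretch members gave 1.47 ± 0.0495 (SD, n = 2) and 45 others 1.58 ± 0.00296 (SD, n = 2). In the inactive members without repeated fragments the ratio was 0.646 ± 0.0533 (SD, n = 2) with 1 to 2 other viewpoints (11 members) and 0.805 ± 0.0938 (SD, n = 2) with 3 to 5 (16 members). With 3 to 5, 14 other inactive viewpoints gave 0.732 ± 0.0194 (SD, n = 2). For pairs of 100 kb or more, inactive members gave 0.717 ± 0.0696 (SD, n = 2) and inactive others 0.922 ± 0.00580 (SD, n = 2). Under 100 kb, inactive members gave 0.779 ± 0.0548 (SD, n = 2) and inactive others 0.621 ± 0.0187 (SD, n = 2).

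Few members had a called contact. A negative binomial test of each fragment from 2.5 kb to 1 Mb, with Benjamini-Hochberg adjustment over all pairs and a count above expectation in each library, called at least 1 contact in 15 of 300 members (5.00%), where 2.29% of all ranked viewpoints had one. Of the 15, 10 were among the 21 members with more than 10% of words repeated, or 47.6% of these, and 23.5% of the other ranked viewpoints with such repeats had a call. In the other 279 members 5 (1.79%) had a call, against 1.24% of the other ranked viewpoints without such repeats. The 5 were Scgb2b1, Vmn1r42 and Ces1b of the inactive set, Dcun1d5, and Hmmr with Nudcd2. Both called fragments of Scgb2b1 shared a 30-base word with it. The stronger held 1265, 2924 and 2913 events in libraries a, b and c where 7.69, 13.7 and 13.5 were expected. The members' 33 called pairs lay a median of 183 kb away, and 26 were at 100 kb or more. The strongest was between C130026I21Rik and the fragment starting at chr1 position 85105873, 161 kb away, with 413, 810 and 789 events in libraries a, b and c where 0.595, 0.939 and 0.943 were expected (adjusted p = 3.7e-102, negative binomial test). That fragment shares a 30-base word with the viewpoint, as did 9 of the 33. Zfp808 met a fragment 429 kb away, next to another viewpoint of its zinc finger cluster, with 96, 159 and 164 events where 0.127, 0.258 and 0.263 were expected (adjusted p = 4.6e-13, negative binomial test). No 30-base word is shared there, although the cluster's genes are related in sequence. Dcun1d5, a neddylation factor on chromosome 9 outside the stretch, had 1 call 645 kb away, with 15, 19 and 16 events where 0.607, 1.00 and 0.974 were expected (adjusted p = 0.043, negative binomial test), and Hmmr with Nudcd2, genes of the mitotic spindle and its motor, had 1 at 20.1 kb, with 7, 16 and 12 events where 1.14, 1.84 and 1.84 were expected (adjusted p = 0.047, negative binomial test). Of the 39 stretch members 0 had a call, and of all 152 stretch viewpoints 5 (3.29%) had one. Under a Poisson model in place of the negative binomial, 297 members had a call, as did 98.0% of all ranked viewpoints.

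Differences of the local share between libraries were counted on the same values that the rule averaged and are given as a description. With a common offset between libraries, a chi-square test with Benjamini-Hochberg adjustment called 51 of 300 members (17.0%), where 4.28% of all ranked viewpoints were called. Deep viewpoints were called most, with 22 of 57 inactive members (38.6%) and 40 of 119 other inactive viewpoints (33.6%), while 18 of 204 remaining members (8.82%) and 2.77% of remaining others were called. Members were deeper than the rest in each class, so counting precision moves with these shares, and its part was not tested. On simulated data this test called too many unchanged viewpoints when all differences ran in 1 direction. Between libraries b and c alone the same chi-square test called 0 members and 0 of all ranked viewpoints, and an unadjusted p under 0.05 was found in 16 of 300 members (5.33%) and 388 of 6517 ranked viewpoints (5.95%). Of the 12 lowest members, Tmx4 was called, with its libraries at 18.6%, 21.8% and 20.6%.

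Long single contacts held little of the far signal. The fragment beyond 1 Mb with most events took a median of 0.0429% of a member's events and 0.0707% in the others, where median depth was 13969 and 6604 events. A share that rests on a handful of events falls with depth, so the 2 medians are not compared. The highest were Sp100 (0.589%, 9 events, 3 in each library) and Cdkn2d (0.536%, 4, 2 and 9 events). Ing3 (0.351%), Alg6 (0.292%) and Ccdc59 with Mettl25 (0.269%) followed on 3 to 5 events each, and in these 3 at least 1 library had 0 events.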

How the data were processed

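The authors trimmed reads with Trim Galore and aligned them with Bowtie to build mm9 (versions not given in the sources used here), removed targeted fragments and PCR duplicates, and deposited a signal for each viewpoint and DpnII fragment, scaled to 100000 per viewpoint and library. A second deposited file lists the viewpoints and their positions. Whole counts were recovered with the lowest nonzero signal of a viewpoint in a library set to 1 event, and 100% of values came out whole within 0.01 events. The samples were mapped to the single group only, since the columns carry no names.

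Members were the 300 viewpoints with the lowest mean local share among 6517 autosomal ones with at least 1000 events and names listed once. They, the gene lists and the classes were chosen with earlier results of these data known. For 2 viewpoints the listed end missed the next DpnII site, and the fragment was taken from the start position. With that end, the viewpoint of Yme1l1 with Mastl ranked 1314. For 2 further ends a gene name was glued to the number and was removed.

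Inactive promoters were found by the study's probe sequences (328 probes) at fragment ends, which matched 187 placed viewpoints. That is slightly more than the number of inactive control promoters given in the paper, and the reason was not tested. Genes came from GENCODE vM1. Shares were compared between libraries with a chi-square test over all ranked viewpoints. Contacts were called with a negative binomial test in 50 distance bins, with the dispersion by moments in each bin, for fragments listed for at least 1 viewpoint, at an adjusted p under 0.05. Both tests were run on simulated data with planted changes. The library test was close to its nominal error rate with no change or with changes in both directions, but called too many unchanged viewpoints when all changes ran in 1 direction, which moves the common offset. The contact test was simulated with a single dispersion for all distances and without the condition on each library. In that setting it made few false calls and missed part of the planted contacts. The error rate of the calls reported here cannot be read from it, since their dispersion came from the data. Words of 30 bases were searched on both strands of the viewpoint's chromosome. Named promoters were the 12 lowest, 5 on each side of the limit, the 5 deepest, the 5 with the largest far fragment, up to 10 inactive and up to 4 per gene class, and the others named were chosen after their values were seen. A few promoters under this rule are not reported here. Alternatives are in the closing section. Python 3.11.15, numpy 2.4.6, pandas 2.3.3, scipy 1.17.1, numba 0.67.0 and matplotlib 3.10.9 were used.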

Additional observations from a re-analysis of the deposited data

How the results depend on the processing

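Of the 300 members, 243 to 300 stayed in the lowest 300 when the window, the distance measure or the averaging was changed. This range includes leaving out the events close to the viewpoint or the top far fragment. Without 1 library 277 to 286 stayed. A minimum of 5000 events left 255 members eligible, and leaving out viewpoints within 1 Mb of a chromosome end left 297. All eligible members then stay by construction, so neither of these settings tests the list. The members' median share was 22.4% with a window of 500 kb and 30.9% with 2 Mb, against 39.4% and 50.7% in the others, and 25.5% to 26.7% without 1 library. The count of members whose share differed between libraries was 51 (4.28% of all ranked viewpoints), rose to 174 without the library offset (56.7%), and ran from 0 to 60 without 1 library (0% to 5.14%), 0 being the value without library a. The count with a called contact was 15, and it was 39 or 86 with the highest 0.1% or 1% of counts left out of the dispersion (7.83% and 23.3% of all ranked viewpoints), 297 under a Poisson model (98.0%) and 23 with word-sharing fragments left out (3.74%), and 12 to 14 without 1 library (1.73% to 2.12%). The cause of these differences was not tested.

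The alternatives that follow were added after the data were seen. The far ratio of inactive, stretch and remaining members was 0.627, 1.92 and 1.82 with a window of 50 kb and 0.872, 1.38 and 1.33 with 250 kb. Without 1 library it was 0.681 to 0.718, 1.68 to 1.70 and 1.56 to 1.59. The ratio next to other promoters in remaining members was 2.13 without repeated fragments. No paired analysis was possible because the samples form 1 group. Shallow members, down to 1027 events, have wide counting intervals, and their order in the list is not resolved.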
